A study of Mesocricetus auratus with 14 samples.

Results

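The 8 genes described here encode the nuclear receptor PPARA and 7 proteins that carry fatty acids into hepatic mitochondria, oxidise them there or turn the product into ketone bodies. They were taken by name as Ppara, Fabp1, Cpt1a, Cpt2, Acadvl, Acadm, Hadha and Bdh1, and all 8 were found among the 10023 genes with a symbol and the 22283 genes of the count table. Liver RNA of golden hamsters (Mesocricetus auratus) was sequenced in 7 samples labelled DC371739, a code-named compound, and 7 labelled control. All 14 samples carry the same diet label, a high-fat diet, so the controls share it. The sources used here do not state genotype, age, sex, dose, route, duration or time of collection, nor whether every sample is a different animal.

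As background, PPARA is a receptor for fatty acids and their derivatives that binds DNA together with a retinoid X receptor and raises the transcription of genes for fatty acid use, above all in the fasted liver. Long-chain fatty acids bound to carrier proteins in the cytosol are activated to acyl-CoA, and the carnitine shuttle moves them across both mitochondrial membranes. Beta-oxidation then shortens them to acetyl-CoA, which the liver can turn into ketone bodies for other organs.

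3 libraries were known from earlier results of these data to stand apart. DC371739 replicate 7 and control replicates 6 and 7 held 22152239 to 23948628 counts, of which mitochondrial features took 12.6% to 14.4%. The other 11 held 13672589 to 16710097 counts and 7.23% to 9.33%. The groups were therefore compared over all 14 libraries, over all 14 with a term for library class (deeper or shallower), and over the 11 shallower libraries (6 DC371739 and 5 control). 9 of 10 hepatocyte markers were measured, and they summed to 118519 to 141115 CPM (counts per 1000000 of the scaled library) in DC371739 and 119342 to 156653 CPM in control libraries. Of 10 adipocyte and muscle markers, 8 had no symbol in the deposited table.

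Per length of transcript, the 8 genes spanned a wide range in the authors' FPKM, a value scaled to transcript length and library size. Fabp1 was the most abundant at 5488 ± 660 FPKM in DC371739 and 7336 ± 1165 FPKM in control samples (SD, n = 7 each), rank 11 and rank 7 among the 10023 genes. Ppara was the least abundant of the 8 at 26.8 ± 7.17 FPKM in DC371739 and 15.95 ± 6.15 FPKM in control samples. The mean over all libraries ran from Fabp1 through Acadm, Acadvl, Bdh1, Hadha, Cpt1a and Cpt2 to Ppara. Fabp1 stood above Acadm, Acadm above Acadvl, Hadha above Cpt1a and Cpt2 above Ppara in 14 of 14 libraries. Bdh1 exceeded Hadha in 12 of 14, Acadvl exceeded Bdh1 in 9 of 14, and Cpt1a exceeded Cpt2 in 7 of 14, so that these neighbours in the order are not separated by their spread.

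**Figure D1:**
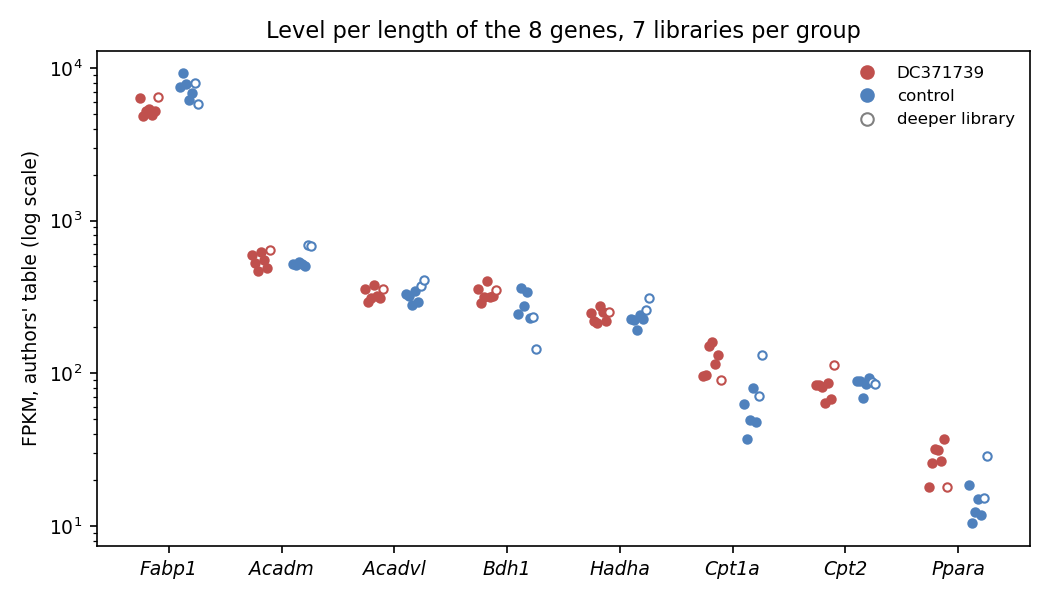
Level of each gene per length, as FPKM from the authors' table on a log axis, with 1 point per library, DC371739 left of control, and open points for the deeper libraries. Fabp1 lies far above the other genes and Ppara lowest, and Cpt1a and Cpt2 change places between the groups.

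The DC371739 and control libraries were compared to find which of these transcripts differed. Over the 11 shallower libraries Ppara and Cpt1a rose and Fabp1 fell, and the other 5 genes did not pass. Ppara was 2.08-fold and Cpt1a 2.27-fold its control level there, and Fabp1 0.709-fold. The same 3 genes passed with the library class term. All 11 fits that left out 1 more library kept these 3 calls. In bulk liver, fewer cells of a type and less RNA per cell cannot be told apart. Over all 14 libraries 0 of the 8 passed edgeR's quasi-likelihood test at an adjusted p of 0.05, where 1.85% of all 12166 genes did (1.24% higher and 0.608% lower). With the class term, 37.5% of the members passed against 12.3% of all genes. There 2 of 8 rose, against 5.62% of all genes, and 1 fell, against 6.7%. Over the 11 shallower libraries the shares were again 37.5% of the members, against 21.5% of 12249 genes (11% higher, 10.5% lower). Whether the members' share differs from the background was not tested. Over all 14 libraries DESeq2 also called Ppara, Cpt1a and Fabp1, against 6.92% of all genes, and limma's voom called these 3 against 22.5%.

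**Figure D2:**
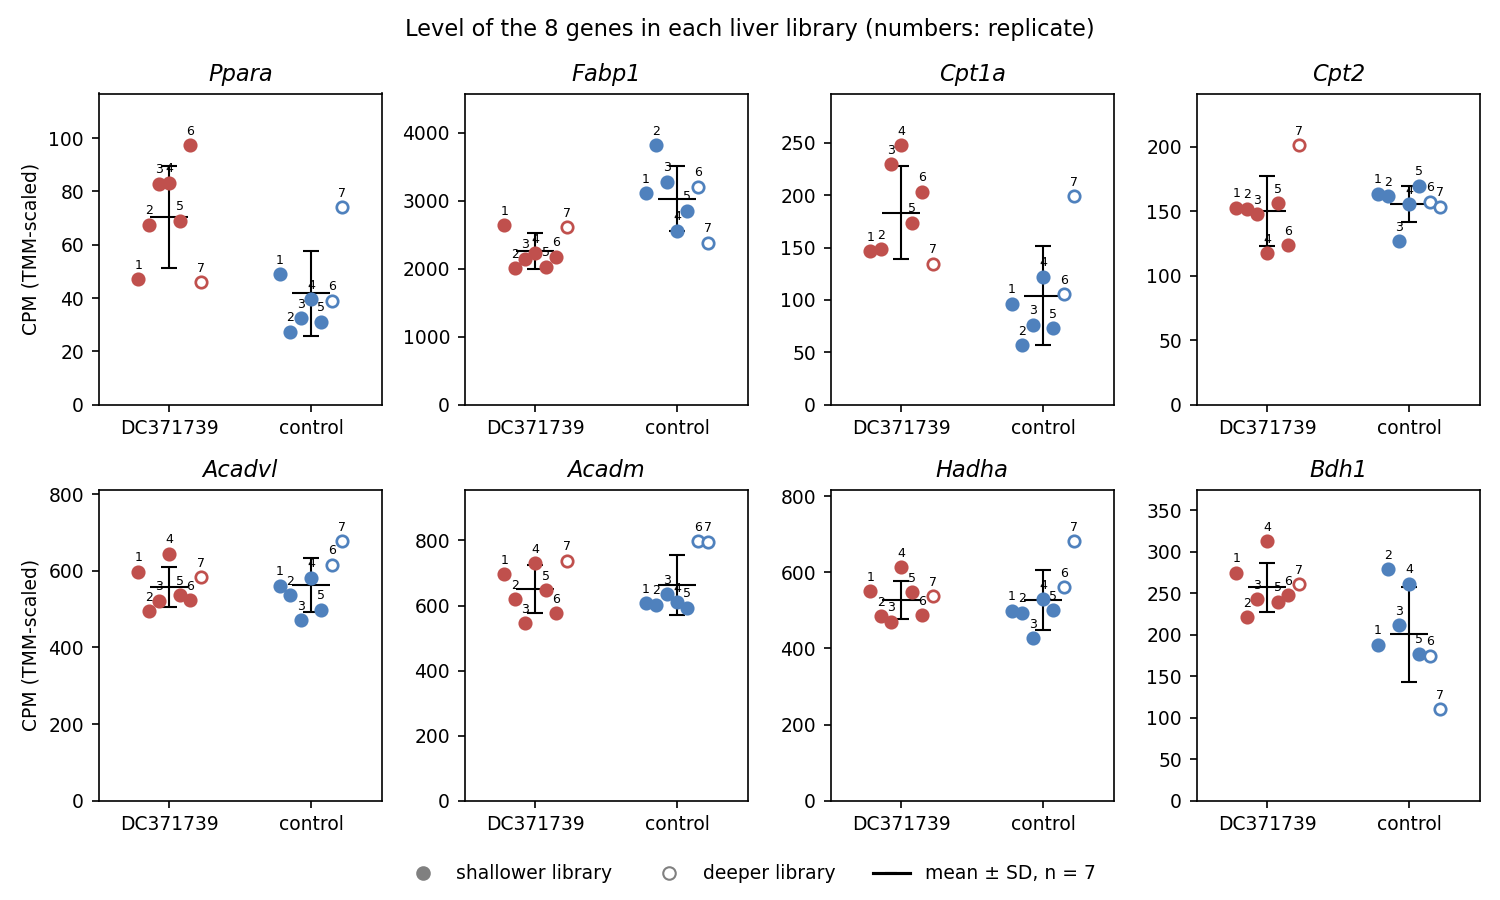
CPM of each gene in each library, DC371739 left of control, with the mean and SD of 7 libraries and the replicate number beside each point. Open points are the deeper libraries, and control replicate 7 is the control highest in Ppara (74.1 CPM) and Cpt1a (199 CPM) and lowest in Fabp1 (2381 CPM) and Bdh1 (110 CPM).

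Ppara, the receptor itself (ENSMAUG00000005745, positions 7817900 to 7878711 of KB708136.1 in the count table, whose genome build the sources used here do not name), ranged from 45.9 CPM through a median of 69.0 to 97.3 CPM in DC371739 libraries. In control libraries it ranged from 27.3 CPM through a median of 39.0 to 74.1 CPM. Each of the 7 DC371739 libraries exceeded the median control, 3 of them exceeding every control and 4 falling within the control range. The lowest DC371739 libraries were replicates 7 and 1, at 45.9 and 47.0 CPM, and the others held 67.5 CPM or more. Among controls, replicate 7 stood at 74.1 CPM and the next highest, replicate 1, at 49.0 CPM. The means were 70.4 ± 19.2 CPM with DC371739 and 41.8 ± 15.9 CPM in controls (SD, n = 7 each).

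The log2 fold change of Ppara was 0.75 (SE 0.22, 95% interval 0.29 to 1.21), with an adjusted p of 0.0734 from edgeR over all 14 libraries. With the class term it was 0.81 (SE 0.25, adjusted p = 0.0489 from edgeR), just past the threshold. Over the 11 shallower libraries it was 1.06 (SE 0.19, adjusted p = 0.00402 from edgeR). There the means were 74.5 ± 17.3 CPM in 6 DC371739 and 35.9 ± 8.55 CPM in 5 control libraries, and the ranges met only where DC371739 replicate 1 lay under control replicate 1. When each of the 14 libraries was left out in turn, Ppara passed in 2 of the 14 runs. Without control replicate 7 the log2 fold change was 0.95 (adjusted p = 0.0115 from edgeR). Without DC371739 replicate 7 it was 0.83 (adjusted p = 0.0265 from edgeR). In the other runs it did not pass, with values down to 0.66 and adjusted p up to 0.164 from edgeR. The authors' deposited table lists Ppara at a log2 fold change of 0.75 with an adjusted p of 0.0751.

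Fabp1, the liver fatty acid binding protein that ferries fatty acids through the cytosol and a known PPARA target in mice, went the other way from Ppara. It ranged from 2006 CPM through a median of 2177 to 2644 CPM in DC371739 libraries. Control libraries ranged from 2381 CPM through a median of 3114 to 3815 CPM. Each of the 7 DC371739 libraries was under the median control, and 5 were under every control. The exceptions were again DC371739 replicates 1 and 7, at 2644 and 2610 CPM, which reached above control replicates 4 and 7. Fabp1 alone took 0.264% of all counts on average.

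The log2 fold change of Fabp1 was -0.42 (SE 0.11, 95% interval -0.65 to -0.19) over all 14 libraries, with an adjusted p of 0.0540 from edgeR. With the class term it was -0.42 (SE 0.10, adjusted p = 0.0196 from edgeR), and over the 11 shallower libraries -0.50 (SE 0.10, adjusted p = 0.00587 from edgeR). Without control replicate 4 or 7, or without DC371739 replicate 7, it also passed over the remaining 13 libraries, with adjusted p of 0.0479, 0.0256 and 0.0231 from edgeR. Of the 14 runs that left out 1 library, only these 3 passed. All 14 runs gave values from -0.47 to -0.36, with adjusted p up to 0.119 from edgeR. Fabp1 has one of the shorter transcripts, with 536 bases of exon (ENSMAUG00000000101, KB708185.1, 11607925 to 11613627). Tested genes were split by exon length into 5 groups of about equal size, a description added after seeing the data. In the shortest group (26 to 1032 bases) the median log2 fold change was -0.09 over all 14 and -0.08 over the 11 shallower libraries. This group also holds Bdh1, itself at 0.36 and 0.21. The group of 1033 to 1650 bases, with Acadm, had medians of -0.05 and -0.04. That of 1651 to 2400 bases had -0.02 and 0.003, and holds Cpt1a (0.81 and 1.18), Cpt2 and Acadvl. In the group of 2401 to 3603 bases, which holds Ppara and Hadha, the median was 0.01 and 0.04. The longest group, of 3604 to 26709 bases, holds no member and had the highest medians, 0.04 and 0.08. The part of transcript length in these results was not tested.

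Cpt1a, the acyltransferase of the outer mitochondrial membrane that controls entry of long-chain fatty acids and is inhibited by malonyl-CoA, ranged from 135 CPM through a median of 174 to 248 CPM in DC371739 libraries. In control libraries it ranged from 56.7 CPM through a median of 96.4 to 199 CPM. All 7 DC371739 libraries exceeded the control median. Control replicate 7, at 199 CPM, lay above 4 of the 7, and the next control, replicate 4, stood at 122 CPM, below all of them. Among the 11 shallower libraries the groups did not overlap: 146 to 248 CPM in 6 DC371739 libraries against 56.7 to 122 CPM in 5 controls. Cpt1a was the only member without overlap there, where 4.09% of 12166 genes had every DC371739 library above every control and 5.29% had every one below (9.38% in all). Over all 14 libraries 0 members were without overlap, against 0.699% of all genes (0.296% above and 0.403% below).

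The log2 fold change of Cpt1a was 0.81 (SE 0.23, 95% interval 0.32 to 1.31) over all 14 libraries, with an adjusted p of 0.0709 from edgeR. It was 0.94 (SE 0.25, adjusted p = 0.0338 from edgeR) with the class term and 1.18 (SE 0.20, adjusted p = 0.00327 from edgeR) over the 11 shallower libraries. Without control replicate 7 it was 1.05 over the other 13 (adjusted p = 0.00996 from edgeR), and without DC371739 replicate 7 it was 0.88 (adjusted p = 0.0340 from edgeR). Of the 14 runs that left out 1 library, only these 2 passed. The others reached down to 0.71, with adjusted p up to 0.149 from edgeR. Cpt1a spans 53741382 to 53772247 of KB708127.1 (ENSMAUG00000018165) with 1983 bases of exon. A gene on the same strand overlaps its span in the table, at a mean of 18.1 counts per library against 2526 for Cpt1a.

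Cpt2, the second acyltransferase of the shuttle, on the inner mitochondrial membrane, did not follow Cpt1a. It averaged 150 ± 27.2 CPM in DC371739 and 156 ± 13.8 CPM in control samples (SD, n = 7 each), with a log2 fold change of -0.05 (95% interval -0.28 to 0.18, adjusted p = 0.836 from edgeR). The DC371739 libraries included both the highest value, 201 CPM in replicate 7, and the lowest, 117 CPM in replicate 4. The log2 fold change was -0.03 with the class term, and without the deeper libraries -0.13 (95% interval -0.33 to 0.08).

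Within a library, the ratio of Cpt1a to Cpt2 needs no scaling between libraries. In FPKM it averaged 1.54 ± 0.60 with DC371739 and 0.807 ± 0.37 in controls (SD, n = 7 each). Cpt1a exceeded Cpt2 in 6 of 7 DC371739 libraries and in 1 of 7 controls. The exceptions were the deeper DC371739 replicate 7, at a ratio of 0.80, and the deeper control replicate 7, at 1.55. This ratio was chosen after its values were seen and was not tested. The ratio of Cpt1a to Ppara was 4.56 ± 0.68 with DC371739 and 4.22 ± 0.67 in controls.

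**Figure D3:**
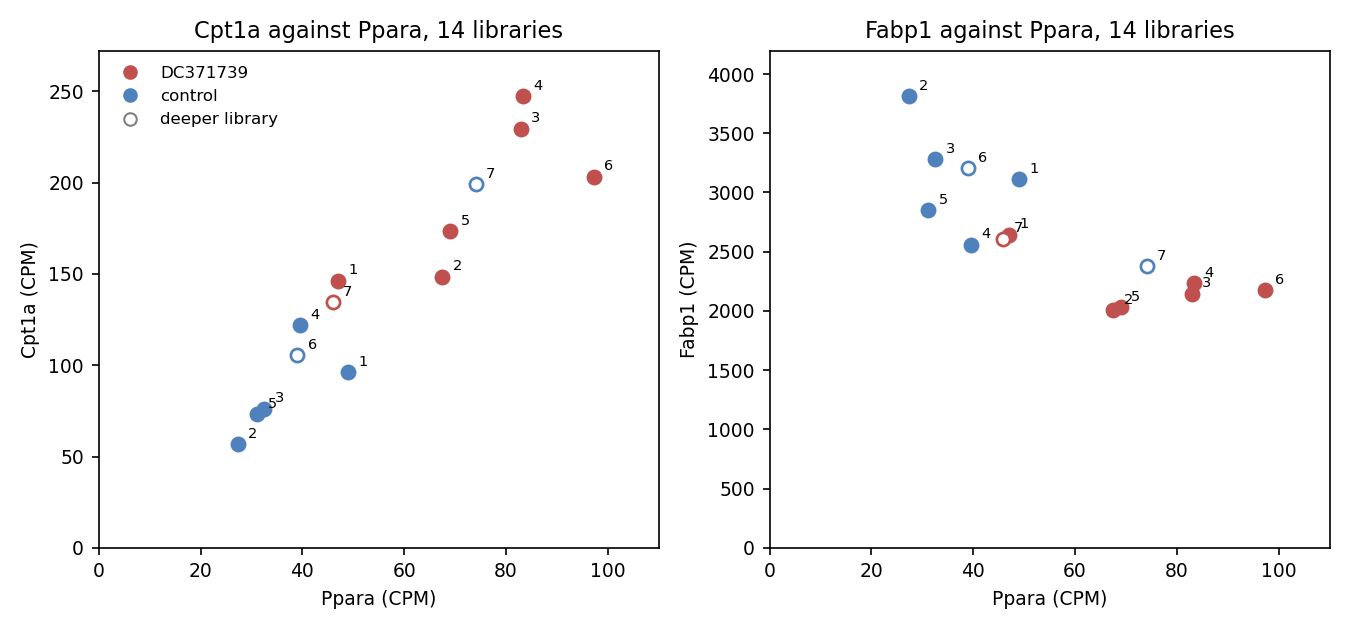
Cpt1a (left) and Fabp1 (right) against Ppara in CPM, with 1 point per library, the replicate number beside it and open points for the deeper libraries. The 3 libraries highest in Ppara (DC371739 replicates 3, 4 and 6) are also the 3 highest in Cpt1a and lie under every control in Fabp1, and control replicate 7 sits among the DC371739 libraries in both panels.

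The dehydrogenases and the trifunctional protein differed little between the groups. Acadvl, which starts the oxidation of very-long-chain acyl-CoA, averaged 558 ± 52.8 CPM in DC371739 and 563 ± 70.2 CPM in control samples (SD, n = 7 each). Its log2 fold change was -0.01 (95% interval -0.21 to 0.18, adjusted p = 0.951 from edgeR). With the class term it was 0.02 (95% interval -0.14 to 0.19), and among the shallower libraries 0.07 (95% interval -0.11 to 0.25). All 7 DC371739 libraries were within the control range.

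Acadm, which acts on medium-chain acyl-CoA, averaged 651 ± 74.7 CPM with DC371739 and 663 ± 92.1 CPM in controls, a log2 fold change of -0.03 (95% interval -0.24 to 0.19, adjusted p = 0.909 from edgeR). Among controls its spread followed library class, with 797 and 796 CPM in replicates 6 and 7 against 593 to 635 CPM in the shallower ones. With DC371739 the deeper replicate 7 was also highest, at 738 CPM, just above the shallower libraries at 546 to 730 CPM. As no other DC371739 library was deeper, this cannot show whether the spread followed class there. The log2 fold change of Acadm was 0.03 with the class term, and among the 11 shallower libraries 0.07 (95% interval -0.10 to 0.24).

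Hadha, the alpha subunit of the trifunctional protein that performs the later steps on long chains, averaged 527 ± 50.0 CPM with DC371739 and 528 ± 78.9 CPM in controls. Its log2 fold change over all 14 libraries was -0.00 (95% interval -0.21 to 0.21, adjusted p = 0.998 from edgeR), 0.04 with the class term, and 0.11 (95% interval -0.07 to 0.29) over the 11 shallower ones. For Cpt2, Acadvl, Acadm and Hadha the 95% intervals over all 14 libraries ran, as folds, from 0.824 at the lowest to 1.15 at the highest. Changes of this size cannot be told from none in these data, and the intervals leave out the fold of 2.08 or 2.27 fitted for Ppara and Cpt1a over the shallower libraries. The signs of Acadvl, Acadm and Hadha flipped between scalings and are not read as directions.

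Bdh1, the mitochondrial enzyme that interconverts acetoacetate and beta-hydroxybutyrate in ketone body formation, ranged from 221 CPM through a median of 248 to 313 CPM in DC371739 libraries. Control libraries ranged from 110 CPM through a median of 188 to 279 CPM. Each of the 7 DC371739 libraries exceeded the median control, and 6 fell within the control range. Its log2 fold change was 0.36 (SE 0.16, 95% interval 0.02 to 0.70, adjusted p = 0.215 from edgeR) over all 14 libraries. It was 0.34 with the class term (adjusted p = 0.116 from edgeR) and 0.21 (95% interval -0.05 to 0.47, adjusted p = 0.235 from edgeR) over the 11 shallower ones. Control replicate 7, at 110 CPM, was the lowest of all libraries, and without it the value over the other 13 was 0.26.

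**Figure D4:**
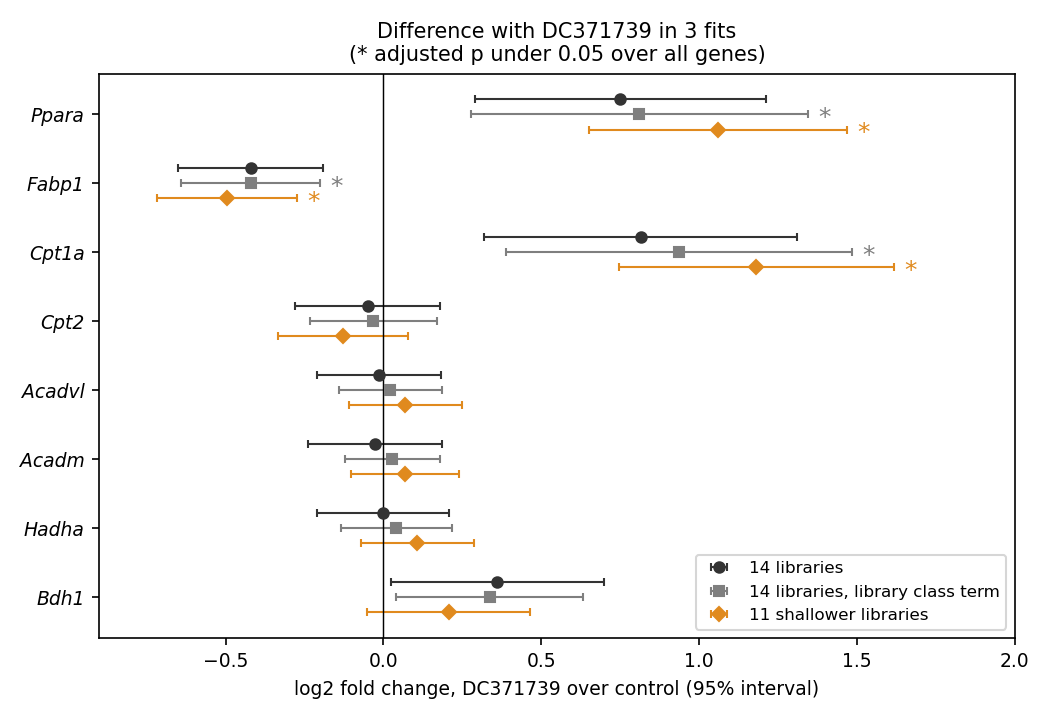
Log2 fold change of DC371739 over control for the 8 genes in 3 fits, with 95% intervals; an asterisk marks an adjusted p under 0.05 over all genes. Ppara and Cpt1a lie right of 0 and Fabp1 left of it in each of the 3 fits, and asterisks appear in the class-term fit and the 11-library fit.

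Around these 8 genes, 123 further genes of the pathway were listed by role, and 92 of them were tested. Their median log2 fold change over all 14 libraries was -0.02, the same as over all genes tested, and 0 passed. With the class term 4 rose and 2 fell, 6.52% of the 92 against 12.3% of all genes. Over the 11 shallower libraries 12 rose and 4 fell, 17.4% against 21.5% of all genes. Both shares lie below the background. Leaving out single libraries moved the 12 to between 5 and 14 and the 4 to between 2 and 5, with 5 and 2 without control replicate 5, 7 and 3 without control replicate 2 or 3, and 8 and 2 without DC371739 replicate 2.

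Among 17 genes of fatty acid uptake and activation none rose and 2 fell over the 11 shallower libraries, beside 11% and 10.5% of all genes. Acsl3, an acyl-CoA synthetase, averaged 11.5 ± 2.80 CPM with DC371739 and 16.7 ± 3.16 CPM in controls, with log2 fold changes of -0.54 over all 14 (adjusted p = 0.0734 from edgeR) and -0.51 over the 11 (adjusted p = 0.0139 from edgeR). Acot13, an acyl-CoA thioesterase, stood at 17.6 ± 3.69 and 23.96 ± 3.45 CPM in the same order of groups, with -0.45 and -0.51 (adjusted p = 0.0163 from edgeR over the 11). With the class term Acsl3 and Acot13 passed (-0.48 and -0.42, adjusted p = 0.0169 and 0.0356 from edgeR). The abundant synthetases Acsl1 (log2 fold change -0.11 over the 11) and Acsl5 (0.39) did not pass.

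In the carnitine shuttle, 4 further genes were tested and none passed in any of the 3 fits. Slc25a20, the carrier that exchanges acylcarnitine and carnitine across the inner membrane between the actions of Cpt1a and Cpt2, averaged 123 ± 16.9 CPM with DC371739 and 120.2 ± 18.4 CPM in controls. Its log2 fold change was 0.04 (95% interval -0.20 to 0.27) over all 14 libraries. Shmt1 (0.27), Aldh9a1 (-0.08) and Bbox1 (-0.02), listed for carnitine synthesis, had adjusted p of 0.430 to 0.969 from edgeR.

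Over the 11 shallower libraries 11% of all genes rose and 10.5% fell, with a median log2 fold change of 0.005. Of 19 further genes of mitochondrial oxidation, 4 rose and 1 fell there, and the median log2 fold change was 0.06. Those that rose were Ivd (0.32, adjusted p = 0.0158 from edgeR), Acad11 (0.29), Pcca (0.27) and Mmut (0.24), and Mcee fell (-0.29). Ivd degrades leucine, and Pcca, Mcee and Mmut process propionyl-CoA, so that 4 of these 5 act outside the spiral of straight-chain oxidation. Over all 14 libraries the values were 0.22 for Ivd, 0.07 for Acad11, 0.10 for Pcca, 0.06 for Mmut and -0.30 for Mcee, with adjusted p of 0.190 to 0.816 from edgeR. Ivd passed with the class term (0.26, adjusted p = 0.0435 from edgeR) and the other 4 did not (0.0747 to 0.261). Acad11, Pcca and Mmut were named because they passed, after seeing their values. The mitochondrial thiolase Acaa2 (-0.17) and the isomerase Eci1 (-0.22) did not pass. In Acaa2 the deeper libraries were highest in both groups, at 1498 CPM in DC371739 replicate 7 and 1851 and 1703 CPM in control replicates 6 and 7.

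Among 6 genes of ketone body metabolism, 1 rose and none fell over the 11 shallower libraries, beside 11% and 10.5% of all genes. The 1 that rose was the monocarboxylate transporter Slc16a7 (log2 fold change 0.36, adjusted p = 0.0111 from edgeR). It stood at 60.1 to 67.5 CPM in the 6 shallower DC371739 libraries against 38.4 to 56.6 CPM in the 5 shallower controls, and at 86.5 CPM in the deeper DC371739 and 90.8 and 94.2 CPM in the deeper control libraries. Its log2 fold change was 0.11 over all 14 (adjusted p = 0.764 from edgeR) and 0.27 with the class term (adjusted p = 0.0534 from edgeR). Aacs, which activates acetoacetate in the cytosol (0.40), the thiolase Acat1 (-0.01) and Slc16a6 (0.47) did not pass there.

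Of 25 regulators of PPARA and of CPT1A, 4 rose and 1 fell over the 11 shallower libraries, a share close to that of all genes (11% higher, 10.5% lower). The coactivator Ncoa1 averaged 19.5 ± 3.87 CPM with DC371739 and 13.8 ± 1.72 CPM in controls, with log2 fold changes of 0.49 over all 14 (adjusted p = 0.0662 from edgeR) and 0.55 over the 11 (adjusted p = 0.00149 from edgeR). The hepatocyte nuclear receptor Hnf4a followed at 0.48 and 0.52 (adjusted p = 0.00504 from edgeR over the 11). With the class term Ncoa1 and Hnf4a passed (0.41 and 0.40, adjusted p = 0.0271 and 0.0359 from edgeR). Both stood low in the deeper DC371739 replicate 7, at 11.6 CPM for Ncoa1 and 73.6 CPM for Hnf4a. The corepressor Nrip1 fell over the 11 (-0.34, adjusted p = 0.0358 from edgeR) and did not pass over all 14 (-0.39, adjusted p = 0.254) or with the class term (-0.29, 0.0532), with 18.6 to 25.4 CPM in shallower DC371739 libraries and 23.5 to 32.8 CPM in shallower controls. Ppargc1b, a low-level coactivator, did not pass (0.61). Ppargc1a, a coactivator of PPARA, and Foxo1 also rose over the 11 (1.21 and 0.52) and were chosen after their values were seen. Over all 14 they were at 0.52 and 0.30 (adjusted p = 0.475 and 0.384 from edgeR), and neither passed with the class term (0.0569 and 0.317). Ppargc1a stood at 3.84 to 12.96 CPM in shallower DC371739 libraries and at 2.08 to 4.50 CPM in shallower controls, while the deeper control replicates 6 and 7 held 13.7 and 9.83 CPM. Rxra, the partner of PPARA on DNA, averaged 595 ± 139 CPM with DC371739 and 576 ± 178 CPM in controls (log2 fold change 0.05, adjusted p = 0.923 from edgeR).

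Of 21 other known PPARA targets, 3 rose and none fell over the 11 shallower libraries, beside 11% and 10.5% of all genes. Their median log2 fold change was 0.15, against 0.005 over all genes, and this difference was not tested. Gpd1, which makes glycerol 3-phosphate, rose there (0.41, adjusted p = 0.0222 from edgeR), as did the triglyceride lipase gene Pnpla2 (0.36, adjusted p = 0.0488 from edgeR). Neither passed over all 14 (0.37 and 0.39, adjusted p = 0.133 and 0.170 from edgeR) or with the class term (0.31 each, 0.0780 and 0.0772). Plin2, a lipid droplet coat protein chosen after its values were seen, rose by 0.97 (SE 0.22, adjusted p = 0.0125 from edgeR). It stood at 146 to 356 CPM in the 6 shallower DC371739 libraries and 115 to 201 CPM in the 5 shallower controls. In the deeper libraries it was 379 CPM with DC371739 and 309 and 447 CPM in controls, and over all 14 its log2 fold change was 0.46 (adjusted p = 0.418 from edgeR). With the class term Plin2 passed (0.79, adjusted p = 0.0382 from edgeR).

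Other targets did not pass in any of the 3 fits. Pex11a (log2 fold change -0.24 over all 14) and Gdf15 (-0.88) had adjusted p of 0.170 and 0.244 from edgeR. Further targets named outside the rule were Pdk4, Fgf21, Angptl4 and Ehhadh. Pdk4, which restrains pyruvate oxidation, held 3.26 to 21.6 CPM in the shallower DC371739 and 1.33 to 8.07 CPM in the shallower control libraries, and 31.1, 85.3 and 24.4 CPM in DC371739 replicate 7 and control replicates 6 and 7. The hormone Fgf21 averaged 160 ± 30.5 CPM with DC371739 and 173 ± 40.4 CPM in controls. Angptl4, an inhibitor of lipoprotein lipase, averaged 62.5 ± 19.3 and 72.9 ± 19.8 CPM in the same order of groups. The peroxisomal enzyme Ehhadh had a log2 fold change of -0.01 over all 14 libraries.

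**Figure D5:**
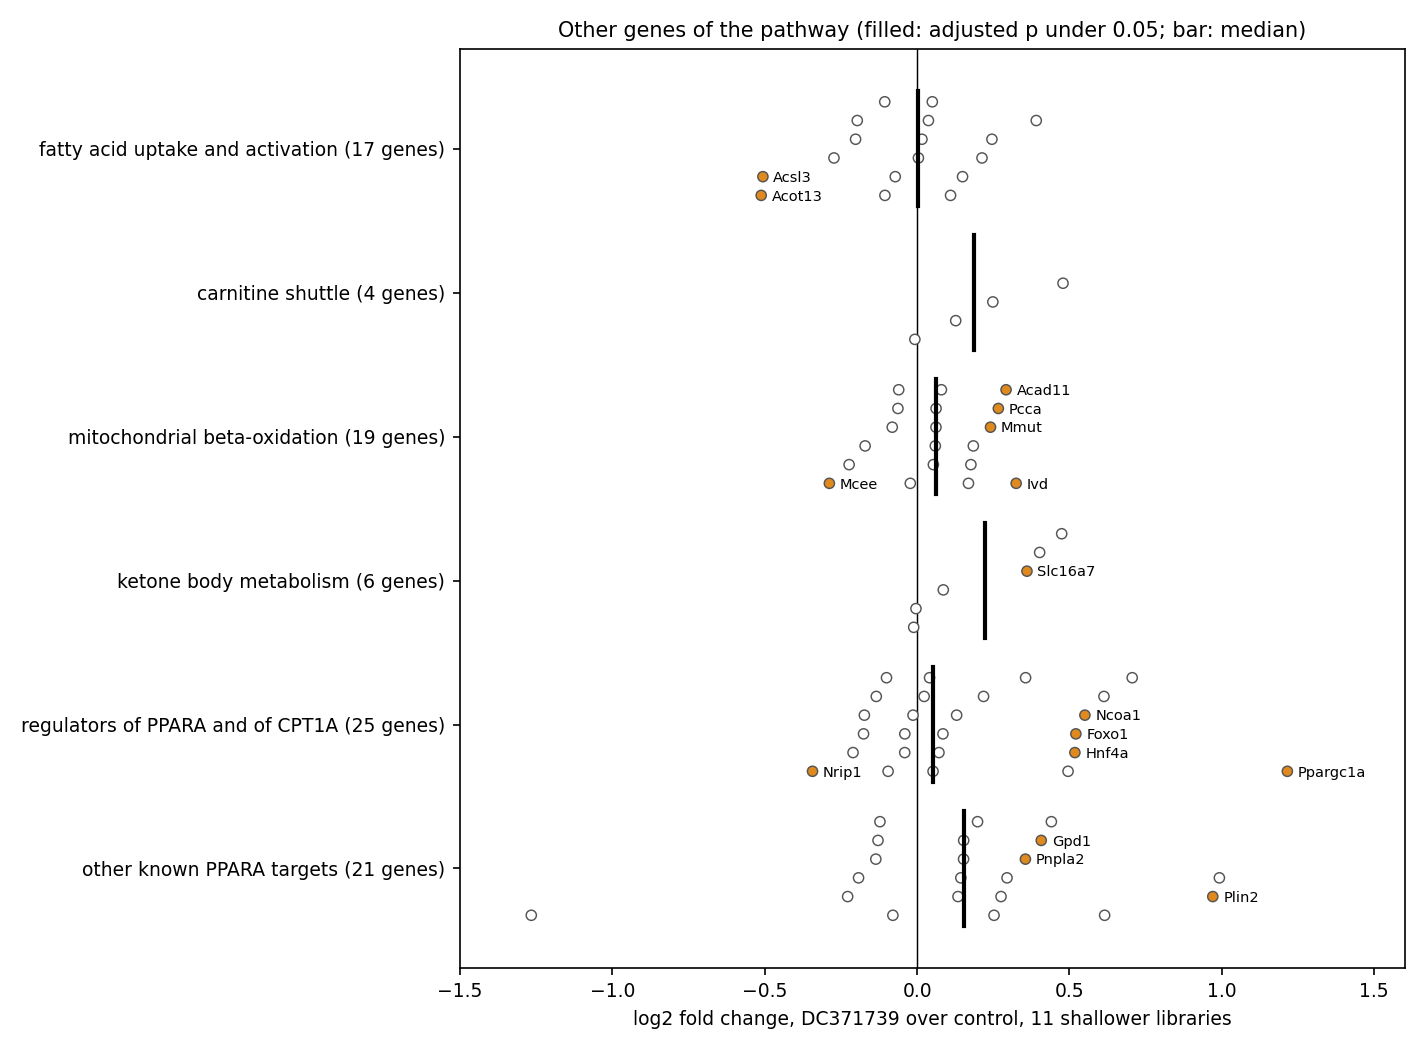
Log2 fold change of DC371739 over control across the 11 shallower libraries for the 92 further genes tested, by role, with 1 point per gene, filled and named where the adjusted p was under 0.05 and a bar at each median. The medians lie between 0.00 and 0.22, and 16 genes are filled.

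The genes whose pattern was most like that of Ppara were found from log2 CPM after removing the means of treatment group and library class, over 14 libraries and 8814 genes, as a description. They were Vps13d (Pearson's r 0.97), Trim25 (0.96), Slc26a1 (0.95), Ubr2 (0.95) and Kif1b (0.94). Of the members, Cpt1a had the highest likeness, at 0.89 and rank 54 of 8814. Hadha stood at 0.41, Acadvl at 0.35, Acadm at -0.05, Cpt2 at -0.56, Bdh1 at -0.61 and Fabp1 at -0.73. All genes of a library share its depth and scaling, which these values also carry. Transcript length was not removed either, and its part in these values was not tested. Vps13d, Kif1b and Ubr2 have 12258, 8523 and 4923 bases of exon, and Slc26a1 and Trim25 have 2587 and 1877. Fabp1 and Bdh1, the members of lowest likeness, have 536 and 996 bases. Cpt1a and Cpt2, far apart in likeness, have 1983 and 2373. Vps13d averaged 42.4 ± 7.47 CPM with DC371739 and 26.4 ± 5.42 CPM in controls and passed over all 14 libraries (log2 fold change 0.68, adjusted p = 0.0250 from edgeR). Trim25, Slc26a1, Ubr2 and Kif1b did not pass over all 14, with log2 fold changes of 0.47, 0.68, 0.29 and 0.59 and adjusted p of 0.117 to 0.225 from edgeR. Over the 11 shallower libraries, where 11% of all genes rose, they and Vps13d all passed. Their log2 fold changes there were 0.42 to 0.88, with adjusted p of 0.00043 to 0.0183 from edgeR.

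Some markers of other liver cells passed in the same comparison, where the shares over all genes were 1.24% higher and 0.608% lower over 14 libraries and 11% higher and 10.5% lower over the 11. Counts of 1 or 2 in a list lie near the 11-library shares or rest on few genes, and no list was tested against them. Of 16 tested macrophage markers 3 rose over all 14 libraries and 6 over the 11 shallower ones, and none fell. Their summed level was 892 to 1387 CPM in DC371739 and 828 to 1201 CPM in control libraries, with none at a count of 0 throughout. The 4 measured neutrophil markers summed to 20.4 to 29.9 CPM with DC371739 and 10.6 to 19.1 CPM in controls, and 1 of them rose over the 11. Stellate and fibroblast markers summed to 312 to 510 CPM and 243 to 356 CPM in the same order of groups, with 2 of 10 higher over the 11. Of the endothelial markers 4 of 10 rose over the 11 (251 to 341 CPM summed with DC371739, 199 to 309 CPM in controls), as did 2 of 8 lymphocyte markers (16.6 to 31.7 and 11.97 to 21.6 CPM in the same order). Among 6 cholangiocyte markers 1 fell (27.8 to 50.1 and 23.0 to 39.5 CPM), and 1 of 13 acute phase genes rose. Hepatocyte markers, of which 1 of 9 rose and none fell there, stood in the ranges given above. The part of cell composition in the results for Ppara, Cpt1a and Fabp1 was not tested.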

How the data were processed

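Liver RNA of 14 samples, 7 labelled DC371739 and 7 control, was analysed from 2 tables of the whole series. The authors deposited whole-number counts per Ensembl gene (22283 genes) and, for 10023 genes with a symbol, FPKM values. The second deposited table also holds the authors' log2 fold change and mean log2 CPM, with the p-value and adjusted p-value of their own comparison. The tools named, per the submitters' processing notes, are edgeR, featureCounts 2.0.0 and HISAT2 2.2.1. Neither settings, strand nor genome build is stated in the sources used here, and reads shared with paralogs or overlapping genes cannot be told apart. Within a library, each deposited FPKM equals the count over gene length times 1 constant, with a largest relative deviation of 1.3e-07.

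Counts were tested across 12166 genes with edgeR 4.0.16 (R 4.3.3), using the quasi-likelihood F-test with robust dispersion, TMM scaling, the default filter (minimum count of 10) and Benjamini-Hochberg adjustment over all genes tested. Adjusted p under 0.05 was called. CPM values use TMM-scaled library totals, and 95% intervals and standard errors come from the same fit. Genes were matched by the authors' symbols, ignoring case. The labels do not say that samples are separate animals, so a p-value may reflect technical spread alone. Within groups, none of 42 library pairs was as close as sampling noise (chi-square at least 11.2 per degree of freedom).

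Alternatives were RLE, upper-quartile or no scaling, 2 other filters, DESeq2 1.42.0, limma 3.58.1 (voom with sample quality weights, and values of log2(FPKM + 1), with and without a minimum mean FPKM of 1, or log2(FPKM + 0.1)), replicate number as a block, a library class term, the 11 shallower libraries alone, and each library left out in turn. The members, lists and alternatives were chosen with earlier results of these data known. Besides the 8 members, the text names from each of 6 lists the 4 tested genes of smallest p over all 14 libraries, and for likeness to Ppara the 5 highest correlations among genes with a mean log2 CPM of at least 1. Other genes are named as chosen after their values were seen or outside the rule. The comparison by transcript length was added after seeing the data. Some genes of the lists are not reported here.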

Additional observations from a re-analysis of the deposited data

Results flagged for a closer look

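In 16 groups of 7 libraries (8 genes, each in DC371739 and control), 1 library stood apart from its group by Dixon's ratio, the gap to the nearest library over the group's whole range. Cpt2 in control replicate 3 was at 127 CPM, and the other controls lay between 154 and 170.0 CPM, a ratio of 0.621. Chance alone marks about 1 group in 20 by this measure.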

How the results depend on the processing

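Over all 14 libraries no member and no further pathway gene passed in edgeR, nor under the other scalings, filters, log2(FPKM + 0.1) or the replicate block. DESeq2 called 2 members higher and 1 lower (2 and 2 of the 92 further genes), voom 2 and 1 (6 and 6), the class term 2 and 1 (4 and 2) and the 11 shallower libraries 2 and 1 (12 and 4), with 1 member free of overlap there. Limma on log2(FPKM + 1), with or without the filter, called 1 member higher, Cpt1a. Leaving out each of the 14 libraries gave 0 to 2 members higher and 0 to 1 lower, and 0 to 3 and 0 to 4 further genes. Leaving out each of the 11 gave 5 to 14 further genes higher and 2 to 5 lower. Ppara and Cpt1a stayed above 0 and Fabp1 below 0 in each alternative run. The replicate block gave log2 fold changes of 0.79 for Ppara (adjusted p = 0.132 from edgeR), 0.90 for Cpt1a (0.0828) and -0.41 for Fabp1 (0.111). Samples that shared a number correlated at 0.55 for replicate 7, where both libraries were deeper, and at -0.13 to 0.12 for the others. Library class was not removed from these values, so they cannot decide whether the numbers pair the samples. Signs turned only for genes near 0. Hadha was at 0.0013 with RLE, 0.021 with upper-quartile and 0.033 with no scaling, 0.0019 with the 1 CPM filter, 0.0012 in DESeq2, 0.070 in voom, 0.0078 in each fit to FPKM, 0.0069 with the block, 0.041 with the class term and 0.11 over the 11 libraries. Acadvl was at 0.0082 with upper-quartile and 0.019 with no scaling, 0.037 in voom, 0.022 with the class term and 0.070 over the 11. Acadm was at 0.0042 with no scaling, 0.022 in voom, 0.028 with the class term and 0.068 over the 11. Leaving out single libraries of the 14 moved Hadha between -0.047 and 0.073, Acadvl between -0.054 and 0.038, Acadm between -0.063 and 0.026 and Cpt2 between -0.14 and 0.00074. The cause of these shifts was not tested. The lowest count of any member was 358 (Ppara in control replicate 2).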
